A study of Mus musculus with 18 samples.

Results

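Peritoneal macrophages from Zeb1ΔM mice that received Metformin before a single dose of LPS were compared with peritoneal macrophages from Zeb1ΔM mice that received LPS in both doses. The members are the 3 libraries of Zeb1ΔM Metformin + LPS and the 3 libraries of Zeb1ΔM LPS + LPS, 6 of the 18 libraries of the series, chosen by their labels for genotype, treatment and library code. All 6 came from C57BL/6 mice that carry floxed Zeb1 alleles and LysM Cre (labelled Zeb1f/f LysM Cre), and both groups had a final dose of LPS, so neither group is untreated and no library of Metformin alone was analysed here. The pretreatment was Metformin in the first group and LPS in the second. Each library held cells pooled from 2 to 3 mice, sorted from the peritoneal lavage on CD11b and F4/80, and RNA was prepared for sequencing from freshly isolated cells with a stranded poly-A kit. The age of the mice is not given in the labels.

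LysM Cre is expressed from the Lyz2 locus, so it deletes floxed alleles in macrophages, monocytes and neutrophils alike, and not in every cell of these types. The sort on CD11b and F4/80 takes resident and recruited macrophages together. The remaining 12 libraries were single-dose LPS in Zeb1ΔM and the 3 treatments in floxed mice without Cre (Zeb1WT, labelled Zeb1f/f), and they enter here as values set beside the comparison.

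LPS is sensed by TLR4 with its co-receptors CD14 and LY96 (MD-2). The adaptor MYD88 leads to NF-kB and the first wave of cytokines, and the adaptors TRIF (Ticam1) and TRAM (Ticam2) lead to IRF3, interferon beta and, through the interferon receptor, to the interferon-stimulated genes. A macrophage that has met LPS before answers a later dose with less of many cytokines, a state called endotoxin tolerance. Metformin is a biguanide used in diabetes that lowers mitochondrial respiration at complex I and activates the energy sensor AMPK. ZEB1 is a zinc-finger transcription factor that binds E-box sequences and is best known for repressing epithelial genes. The comparison addresses how a Metformin pretreatment and an LPS pretreatment differ in what they leave of the response to LPS in macrophages of Zeb1ΔM mice.

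Library code and pretreatment were confounded. The 3 Metformin + LPS libraries carry codes of a series shared with Zeb1WT Metformin + LPS, whereas the 3 LPS + LPS libraries and all others of the series carry codes of another series. A difference of the code series cannot be told apart from a difference of the pretreatment in any value of the comparison within Zeb1ΔM. Total counts were 22517171 to 24133309 in Metformin + LPS and 14053706 to 19787822 in LPS + LPS. In the libraries of Metformin + LPS, genes at the ribosomal RNA locus (Gm42418, CT010467.1 and AY036118) took 11.7%, 14% and 4.24% of all counts, against 1.31%, 1.47% and 0.787% in those of LPS + LPS. The mitochondrial genome took 1.23%, 1.19% and 1.91%, against 0.654%, 0.632% and 0.513% in the same order. These shares did not overlap, and over all 12 libraries without Metformin those of the ribosomal RNA locus were 0.287% to 2.29%, while in Zeb1WT Metformin + LPS they were 6.73% to 12.4%. Replicate 3 of Metformin + LPS stood apart from the other two, with 18290 genes counted at least once against 16080 and 15782, and with a log2 CPM correlation of 0.959 with each of them where they correlated at 0.974.

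**Figure D1:**
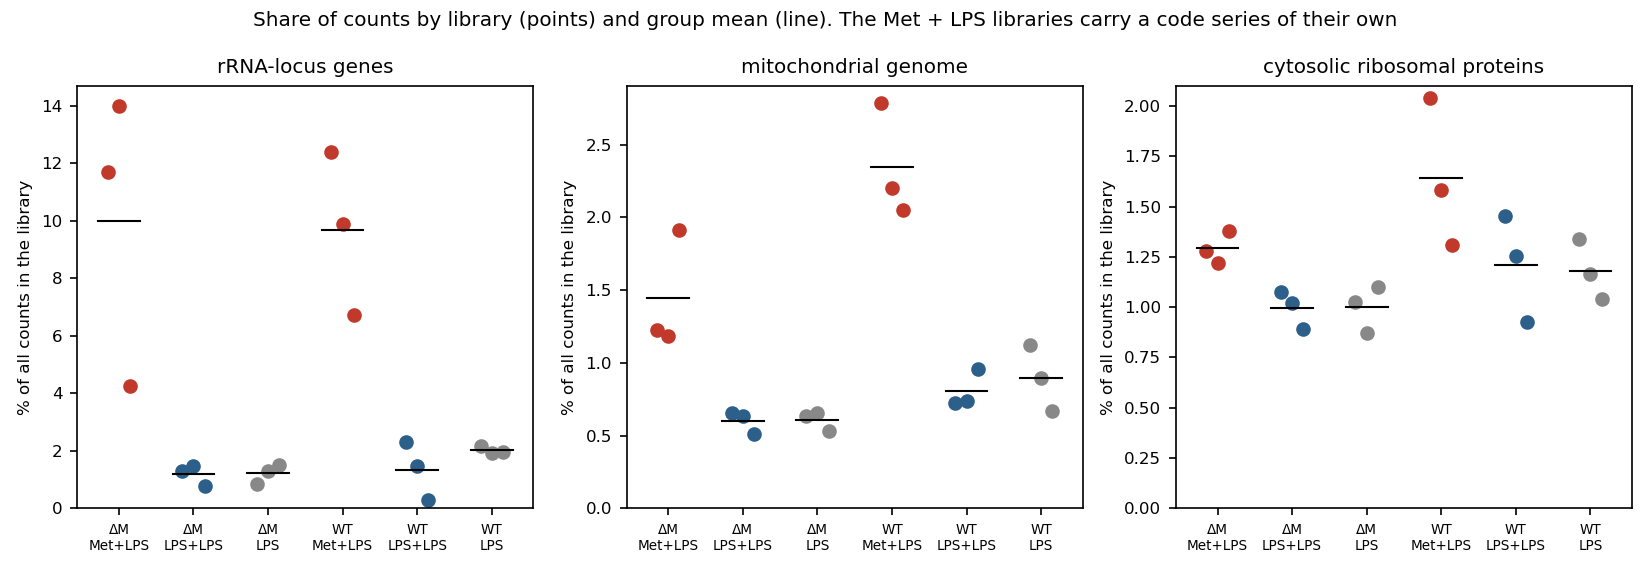
Share of all counts in each library, in percent, for genes of the ribosomal RNA locus, the mitochondrial genome and the cytosolic ribosomal proteins; points are libraries and lines are group means (n = 3), with Zeb1ΔM (ΔM) left and Zeb1WT (WT) right. The ribosomal RNA locus took 4.24% to 14% in Zeb1ΔM Metformin + LPS (the Metformin code series) and 0.787% to 1.47% in Zeb1ΔM LPS + LPS (the other code series).

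Zeb1, the gene targeted in these mice, was measured first. It stood at 4.21, 4.79 and 3.92 CPM in Metformin + LPS, against 0.738, 0.926 and 0.758 CPM in LPS + LPS, from 83, 91 and 83 counts in Metformin + LPS and 22, 22 and 16 counts in LPS + LPS. The groups did not overlap (log2 fold change 2.41, SE 0.38, adjusted p = 4.6e-05, edgeR quasi-likelihood test with Benjamini-Hochberg adjustment). In Zeb1WT the levels were 12.6, 12.9 and 12.3 CPM in Metformin + LPS and 0.912, 2.52 and 1.07 CPM in LPS + LPS. Each Zeb1ΔM Metformin + LPS library was thus below each Zeb1WT library of the same treatment, whereas in LPS + LPS the highest Zeb1ΔM value lay above the lowest Zeb1WT value, at counts of 16 to 66. All 3 Zeb1ΔM Metformin + LPS libraries also lay above all 3 Zeb1WT LPS + LPS libraries. The transcript level therefore does not separate the genotypes across treatments, and no absence of Zeb1 RNA was measured in Zeb1ΔM. Counts over a whole gene include any reads from exons that Cre does not remove.

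Over all genes, 2970 were higher and 3236 lower in Metformin + LPS than in LPS + LPS at an adjusted p under 0.05, which is 22.1% and 24.1% of the 13443 genes tested and 46.2% in both directions. The libraries of the groups did not overlap for 63.0% of all genes tested, so an absence of overlap by itself is common here. The median log2 fold change over all genes tested was -0.11. When counts were scaled by library size alone, an alternative chosen after seeing the data, the median shifted by -0.81, to a value of -0.92, and the split became 1318 higher and 6652 lower genes (16.5% of the called genes higher, against 47.9%). TMM factors were 0.843 to 0.879 in Metformin + LPS and 1.504 to 1.507 in LPS + LPS. Directions below are therefore relative to the bulk of genes in these libraries.

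The largest rises in Metformin + LPS were led by interferon-stimulated genes, a class that includes many antiviral effectors. Mx1 (chr16:97447035-97462907, GRCm38), of the dynamin-like GTPases, is annotated as a polymorphic pseudogene, and the C57BL/6 strain is known to carry an allele without a functional protein, so its values describe an interferon-inducible transcript. It stood at 1071, 960.5 and 1041 CPM in Metformin + LPS, against 1.81, 2.32 and 3.17 CPM in LPS + LPS (log2 fold change 8.72, SE 0.40, adjusted p = 8.3e-11). Rsad2, which encodes the radical SAM enzyme viperin, stood at 6865, 6651 and 5799 CPM in Metformin + LPS, against 22.04, 18.4 and 46.5 CPM in LPS + LPS (log2 fold change 7.80, SE 0.47, adjusted p = 9.1e-10). Ifit2, of the family that binds foreign RNA, stood at 2741, 3033 and 3235 CPM in Metformin + LPS, against 5.57, 4.67 and 22.7 CPM in LPS + LPS (log2 fold change 8.10, SE 0.59, adjusted p = 9.1e-09). In all 3 genes the Metformin + LPS libraries lay close together and far above LPS + LPS, and replicate 3 was the highest of the LPS + LPS libraries.

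All 28 interferon-stimulated genes on the list were higher in Metformin + LPS, with a median log2 fold change of 3.84, beside 22.1% and -0.11 over all genes. The smallest change was that of Bst2 (tetherin), at 232 ± 13.9 CPM in Metformin + LPS and 57.95 ± 7.08 CPM in LPS + LPS (log2 fold change 2.00, SE 0.24, adjusted p = 2.5e-06). Cmpk2, the mitochondrial nucleotide kinase next to Rsad2, rose by 7.01 on the log2 scale, and Mx2 by 7.24. Ifih1, which encodes the RNA sensor MDA5, stood at 1598 ± 106 CPM in Metformin + LPS and 80.1 ± 13.4 CPM in LPS + LPS (4.32, adjusted p = 3.2e-10). The summed level of the list was 42065, 42909.8 and 42430.3 CPM in Metformin + LPS, against 1791, 1858 and 2820.5 CPM in LPS + LPS. In Zeb1ΔM after a single dose of LPS, whose libraries share the code series of LPS + LPS, the sum was 23339 to 25639 CPM, and all 28 genes lay nearer to Metformin + LPS than to LPS + LPS there, beside 53.4% of all genes tested.

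Other rises of this size were Ifit1bl1 (8.34), Ifit3 (6.35), Ifit1 (6.23), Slfn9 (6.08) of the Schlafen family and 9930111J21Rik1 (5.81). Tnfsf10, the death ligand TRAIL, stood at 276, 269.6 and 144 CPM in Metformin + LPS, against 0.939, 0.337 and 1.52 CPM in LPS + LPS (log2 fold change 7.96, SE 0.47, adjusted p = 7.8e-10). Mid1, an E3 ubiquitin ligase of the microtubules, rose by 5.93 but was at 5.95, 6.32 and 12.1 CPM in single-dose LPS, nearer to LPS + LPS. All 28 members of the interferon list and all 14 of the GBP and IRG list kept their call under scaling by library size, with GC and length trends removed, and without replicate 3 of Metformin + LPS.

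The interferon-stimulated response element, searched as AAANNGAAA on both strands, was looked up in the RefSeq promoter windows (250 bases before to 50 after the start site, GRCm38.p6), which matched 9738 of the 13443 genes tested. It was found in 8.6% of all 12400 windows, in 13% of the windows of genes called higher and in 6.82% of those called lower. Of the 28 interferon-stimulated genes 20 had a window, and 16 of these held the element. All 9 GBP and IRG genes with a window held it, as did 1 of 20 neutrophil, 3 of 27 glycolysis and lactate, 2 of 21 NF-kB and brake, 2 of 16 cytokine and 2 of 16 chemokine genes. A match is a description of these letters and no evidence of binding. The windows of 5 genes that rose strongly are shown because they hold the element, with each match in capitals, 5′ to 3′ along the gene, and a match that reads TTTC first lies on the opposite strand.
Rsad2 (chr12:26456403-26456702, minus strand): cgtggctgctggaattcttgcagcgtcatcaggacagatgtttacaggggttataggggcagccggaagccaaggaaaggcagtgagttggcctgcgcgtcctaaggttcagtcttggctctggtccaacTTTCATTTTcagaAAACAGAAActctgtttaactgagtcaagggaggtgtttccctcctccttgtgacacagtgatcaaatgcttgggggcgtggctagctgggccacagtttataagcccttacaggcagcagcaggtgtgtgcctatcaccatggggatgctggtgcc
Ifit1 (chr19:34640639-34640938, plus strand): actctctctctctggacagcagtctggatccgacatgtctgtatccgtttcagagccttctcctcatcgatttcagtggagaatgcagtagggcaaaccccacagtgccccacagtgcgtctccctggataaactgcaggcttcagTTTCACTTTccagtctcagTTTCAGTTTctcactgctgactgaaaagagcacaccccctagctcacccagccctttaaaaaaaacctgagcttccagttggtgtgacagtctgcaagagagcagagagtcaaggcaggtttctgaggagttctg
Ifit3 (chr19:34583279-34583578, plus strand): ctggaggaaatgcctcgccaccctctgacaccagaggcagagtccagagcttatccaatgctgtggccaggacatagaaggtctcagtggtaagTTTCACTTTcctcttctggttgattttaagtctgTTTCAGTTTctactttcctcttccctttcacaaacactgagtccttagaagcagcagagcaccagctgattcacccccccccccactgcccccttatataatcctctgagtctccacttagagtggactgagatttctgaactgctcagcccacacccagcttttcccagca
Cxcl10 (chr5:92348840-92349139, minus strand): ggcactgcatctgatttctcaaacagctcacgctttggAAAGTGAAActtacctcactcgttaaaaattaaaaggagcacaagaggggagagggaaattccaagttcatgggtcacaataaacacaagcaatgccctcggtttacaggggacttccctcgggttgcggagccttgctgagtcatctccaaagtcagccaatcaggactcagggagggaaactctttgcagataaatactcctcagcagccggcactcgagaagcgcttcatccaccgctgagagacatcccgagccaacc
Gbp5 (chr3:142496684-142496983, plus strand): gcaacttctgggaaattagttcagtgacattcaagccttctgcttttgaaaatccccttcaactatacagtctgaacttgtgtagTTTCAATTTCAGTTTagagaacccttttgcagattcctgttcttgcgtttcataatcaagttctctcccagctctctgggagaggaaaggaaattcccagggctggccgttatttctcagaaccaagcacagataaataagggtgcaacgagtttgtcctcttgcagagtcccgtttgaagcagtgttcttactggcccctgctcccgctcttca

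The guanylate-binding proteins and immunity-related GTPases, which attack the membranes of vacuoles around intracellular microbes, moved the same way. All 14 rose, beside 22.1% of all genes tested, with a median of 3.60. Gbp5, whose promoter window is among those shown, stood at 528, 498 and 352 CPM in Metformin + LPS, against 10.9, 8.46 and 6.34 CPM in LPS + LPS (log2 fold change 5.74, SE 0.48, adjusted p = 4.4e-08). Gbp9 rose by 4.80 and Gbp3 by 4.69, whereas Gbp2, the least changed, stood at 1932 ± 537 CPM in Metformin + LPS and 249 ± 2.95 CPM in LPS + LPS (2.96, adjusted p = 6.3e-06). The summed level of these genes was 13121, 12971 and 18046 CPM in Metformin + LPS, against 1196, 932 and 1323 CPM in LPS + LPS, and single-dose LPS lay at 11278 to 11939 CPM.

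Cytokine genes were mostly higher in Metformin + LPS. Of the 22 tested, 14 (63.6%) rose and 3 (13.6%) fell, beside 22.1% and 24.1% of all genes tested. Their median was 1.71, and scaling by library size gave 12 and 6. Without replicate 1 of Metformin + LPS or replicate 1 of LPS + LPS, 1 fell. Il15, which sustains NK and memory T cells, stood at 238, 219.8 and 204 CPM in Metformin + LPS, against 0.705, 0.7998 and 0.710 CPM in LPS + LPS (log2 fold change 8.21, SE 0.36, adjusted p = 8.0e-11), and at 74.02, 70.6 and 84.8 CPM in single-dose LPS. Il6, the acute-phase cytokine, stood at 104.9, 93.7 and 98.2 CPM in Metformin + LPS, against 6.54, 8.67 and 13.4 CPM in LPS + LPS (log2 fold change 3.38, SE 0.35, adjusted p = 4.9e-07), with no overlap and with 37.01, 63.97 and 45.9 CPM in single-dose LPS. Il27, a regulator of T cell responses, rose by 4.05 (adjusted p = 3.8e-07), Il18, an inflammasome substrate, by 2.84 and Il19, a cytokine of the IL-10 family, by 3.70. Il1f9, which encodes IL-36 gamma, went the other way at 6.09, 4.58 and 6.37 CPM in Metformin + LPS, against 57.5, 26.4 and 89.2 CPM in LPS + LPS (log2 fold change -3.34, SE 0.56, adjusted p = 9.2e-05). Csf2 and Ifnb1, which encode GM-CSF and interferon beta, had at most 3 counts over either group and were not tested.

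Of 24 chemokine genes, 13 (54.2%) rose and 2 (8.33%) fell, beside 22.1% and 24.1% of all genes tested, with a median of 1.20. With library size alone 11 rose and 8 fell, with a median of 0.38. Cxcl10, which draws CXCR3-bearing lymphocytes, showed 9615, 8863 and 9489 CPM in Metformin + LPS, against 57.5, 33.5 and 35.04 CPM in LPS + LPS (log2 fold change 7.79, SE 0.82, adjusted p = 5.7e-07). Ccl7, a monocyte attractant, stood at 2145, 2216 and 3373 CPM in Metformin + LPS, against 162, 104 and 237 CPM in LPS + LPS (log2 fold change 3.94, SE 0.46, adjusted p = 1.8e-06). Ccl4 rose by 3.06 and Ccl5 by 2.56, both chemokines of the CC family, and Ccl24, an eosinophil attractant, by 2.75. Ccl8 fell, with 1.01, 1.21 and 0.897 CPM in Metformin + LPS, against 7.15, 8.92 and 11.6 CPM in LPS + LPS (log2 fold change -3.14, SE 0.59, adjusted p = 2.8e-04). For Ccl24 the single-dose LPS libraries were higher than either group, at 307, 147 and 213 CPM.

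The genes listed for LPS sensing were mostly higher as well. Of the 14 genes on the LPS receptor and adaptor list, 10 (71.4%) rose and 1 (7.14%) fell, beside 22.1% and 24.1% of all genes tested. Their median was 1.42, and with library size alone 6 rose and 1 fell. Tlr4, the receptor, stood at 128, 102 and 96.4 CPM in Metformin + LPS, against 35.7, 30.1 and 38.5 CPM in LPS + LPS (log2 fold change 1.64, SE 0.21, adjusted p = 6.9e-06). Myd88 was at 813 ± 28.5 CPM in Metformin + LPS and 210.2 ± 8.48 CPM in LPS + LPS (1.95, adjusted p = 5.6e-07) and Ly96 at 91.2 ± 36.96 CPM in Metformin + LPS and 24.02 ± 1.58 CPM in LPS + LPS (1.92, adjusted p = 5.7e-06). Ticam2, the TRAM adaptor of the interferon branch, was the single member that fell, with 1.22, 2.21 and 2.597 CPM in Metformin + LPS, against 34.2, 22.9 and 14.3 CPM in LPS + LPS (log2 fold change -3.56, SE 0.40, adjusted p = 1.5e-06). Acod1 is counted among the 14 although it encodes the enzyme that makes itaconate, not a receptor or adaptor, and it had the largest rise of the list. It stood at 7592, 7509.6 and 8009 CPM in Metformin + LPS, against 1718, 1369 and 1261 CPM in LPS + LPS (log2 fold change 2.41, SE 0.33, adjusted p = 1.0e-05). The libraries overlapped in none of these 5 genes, beside 63.0% of all genes tested without overlap.

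The NF-kB subunits and the genes that brake Toll-like receptor signalling were mostly higher. Of 25, 17 (68%) rose and 2 (8%) fell, beside 22.1% and 24.1% of all genes tested. Their median was 1.31, and with library size alone 13 rose and 5 fell. Rel, the c-Rel subunit, stood at 211, 189 and 132 CPM in Metformin + LPS, against 24.1, 30.1 and 28.2 CPM in LPS + LPS (log2 fold change 2.69, SE 0.19, adjusted p = 6.4e-09). Among the brakes, Tnfaip3 (A20) was at 3316, 3001 and 2226 CPM in Metformin + LPS, against 411, 637 and 682 CPM in LPS + LPS (log2 fold change 2.30, SE 0.26, adjusted p = 1.2e-06), Tnip3, a partner of A20, rose by 3.19, and Nfkbiz, an atypical IkB protein, by 1.65. Il1r2, the decoy receptor of interleukin 1 and a brake on the same list, was one of the largest falls of all genes, at 0.964, 2.21 and 1.98 CPM in Metformin + LPS, against 117, 46.3 and 176 CPM in LPS + LPS (log2 fold change -6.03, SE 0.71, adjusted p = 2.1e-06). In single-dose LPS, 20 of the 25 lay nearer to Metformin + LPS. Immediate early genes were split, with 7 of 20 (35%) higher and 4 (20%) lower, beside 22.1% and 24.1% of all genes tested. Their median of -0.31 became 0.29 when GC and length trends were removed and -1.13 with library size alone (4 higher and 9 lower). Without replicate 1 of Metformin + LPS 4 rose, and without replicate 1 of LPS + LPS 2 fell. Atf3, a repressor of LPS-induced genes, rose by 2.49 and Ier3 by 1.78, whereas Fosl1, an AP-1 subunit, fell by 3.50.

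**Figure D2:**
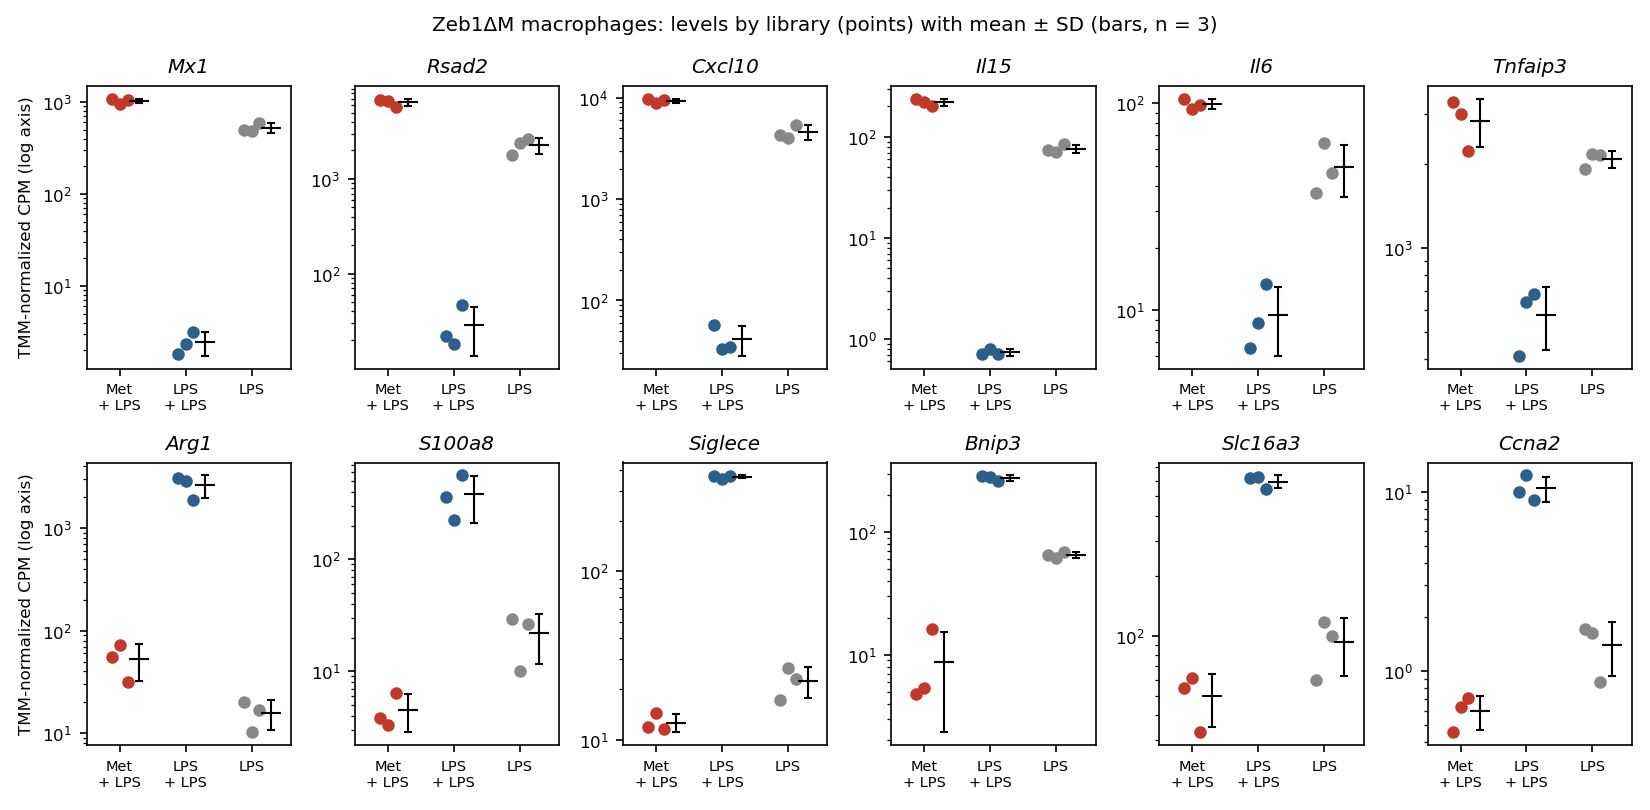
TMM-normalized CPM on a log axis of 12 genes in Zeb1ΔM Metformin + LPS (red, left), LPS + LPS (blue) and single-dose LPS (grey); points are libraries and black bars mean ± SD (n = 3). Genes in the upper row were higher in Metformin + LPS and those in the lower row lower, and in Mx1 the 3 Metformin + LPS libraries sat between 960.5 and 1071 CPM, all above those of LPS + LPS.

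Among the largest falls was Arg1, the arginase that marks alternatively activated macrophages and competes with nitric oxide synthase for arginine (chr10:24915221-24927484). It stood at 55.3, 72.7 and 31.4 CPM in Metformin + LPS, against 3062, 2889.5 and 1855 CPM in LPS + LPS (log2 fold change -5.62, SE 0.43, adjusted p = 1.5e-08). The groups were far apart. In single-dose LPS it was lower still, at 20.3, 10.2 and 16.97 CPM. Of 17 alternative activation and anti-inflammatory genes, however, 7 (41.2%) fell and 5 (29.4%) rose, beside 24.1% and 22.1% of all genes tested. Their median was -0.12, close to that of all genes. This median was 0.20 when GC and length trends were removed and -0.94 with library size alone, where 2 rose and 8 fell. Chil3 (Ym1), a chitinase-like lectin, stood at 17.5, 28.8 and 20.1 CPM in Metformin + LPS, against 549, 126 and 913 CPM in LPS + LPS (log2 fold change -4.58, SE 0.64, adjusted p = 1.5e-05), spread widely over the LPS + LPS libraries. Cd163, the haemoglobin scavenger receptor, stood at 3.14, 4.43 and 2.69 CPM in Metformin + LPS, against 33.7, 31.1 and 28.4 CPM in LPS + LPS (log2 fold change -3.18, SE 0.43, adjusted p = 1.1e-05). Cd274, which encodes PD-L1, rose by 2.69 and Il4ra, the interleukin 4 receptor, by 1.46.

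The other large falls had varied functions. Siglece, an inhibitory sialic acid receptor of myeloid cells, stood at 11.9, 14.4 and 11.6 CPM in Metformin + LPS, against 370.1, 356 and 366 CPM in LPS + LPS (log2 fold change -4.85, SE 0.24, adjusted p = 1.6e-10). Ms4a7, a membrane protein of macrophages, stood at 0.913, 1.53 and 0.897 CPM in Metformin + LPS, against 61.2, 59.2 and 58.4 CPM in LPS + LPS (log2 fold change -5.74, SE 0.47, adjusted p = 3.2e-08). Lox, which cross-links collagen, stood at 2.69, 2.85 and 1.84 CPM in Metformin + LPS, against 110.0, 62.0 and 50.8 CPM in LPS + LPS (log2 fold change -4.92, SE 0.68, adjusted p = 1.3e-05). In each of these the single-dose LPS libraries were also low, with a highest value of 26.6 CPM for Siglece, 1.07 CPM for Ms4a7 and 1.48 CPM for Lox. Gys1, the glycogen synthase of muscle and other tissues, fell by 5.46 on the log2 scale, Dgkz, a diacylglycerol kinase, by 5.03, Sdc1, the heparan sulfate proteoglycan syndecan 1, by 4.96, and Slc13a3, a dicarboxylate transporter, by 4.93. Chst12, a chondroitin sulfotransferase, fell by 4.83 and Rab7b, a GTPase of late endosomes, by 4.77.

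Genes of glycolysis and lactate handling were mostly lower in Metformin + LPS: 17 of 28 (60.7%) fell and 8 (28.6%) rose, beside 24.1% and 22.1% of all genes tested. Their median was -1.13, and with library size alone 19 fell and 3 rose. Slc16a3 (MCT4), which exports lactate, stood at 54.6, 61.4 and 32.8 CPM in Metformin + LPS, against 615, 622 and 542 CPM in LPS + LPS (log2 fold change -3.58, SE 0.36, adjusted p = 3.8e-07). Slc2a1 (GLUT1), the glucose importer, stood at 52.7, 70.9 and 125 CPM in Metformin + LPS, against 387, 436 and 401 CPM in LPS + LPS (log2 fold change -2.30, SE 0.25, adjusted p = 1.1e-06), and Pgam1 fell by 2.27. Hk2, which phosphorylates glucose, went the other way with 332, 303 and 259.7 CPM in Metformin + LPS, against 49.3, 70.8 and 57.1 CPM in LPS + LPS (log2 fold change 2.34, SE 0.22, adjusted p = 1.3e-07). So did Slc2a6, a lysosomal hexose carrier, at 1482 ± 85.6 CPM in Metformin + LPS and 243 ± 19.9 CPM in LPS + LPS (2.61, adjusted p = 1.4e-07), and Pfkm (3.35, adjusted p = 1.2e-06). The list therefore held calls in both directions. In single-dose LPS, 22 of the 28 lay nearer to Metformin + LPS. Bnip3, a hypoxia-responsive mitophagy receptor, was among the largest falls, at 4.82, 5.32 and 16.2 CPM in Metformin + LPS, against 288, 283 and 260.3 CPM in LPS + LPS (log2 fold change -4.97, SE 0.51, adjusted p = 4.3e-07), with replicate 3 the highest of Metformin + LPS.

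Nuclear genes of the tricarboxylic acid cycle and of respiration were higher in part. Of 22 TCA cycle genes 9 rose and 1 fell (median 0.27), of 36 complex I subunits 11 rose and 1 fell (median 0.36), and of 35 subunits of complexes III to V 19 rose and none fell (median 0.46). The shares that rose were 40.9%, 30.6% and 54.3%, beside 22.1% of all genes tested. The directions of these 3 lists rest on the scaling, since with library size alone their medians were -0.55, -0.45 and -0.35, still above the median of -0.92 over all genes in that setting. There 3 rose and 10 fell of the TCA cycle genes, 0 rose and 16 fell of complex I and 1 rose and 11 fell of complexes III to V. The count of risen complex I subunits was 5 to 6 when a single library of the comparison, other than replicate 2 of Metformin + LPS, was left out. Idh2, the mitochondrial isocitrate dehydrogenase, stood at 83.3, 86.6 and 81.5 CPM in Metformin + LPS, against 31.2, 33.5 and 23.4 CPM in LPS + LPS (log2 fold change 1.51, SE 0.17, adjusted p = 1.0e-06). Acly, which turns citrate into acetyl-CoA, was at 1165, 1046 and 715 CPM in Metformin + LPS, against 234, 275 and 277 CPM in LPS + LPS (log2 fold change 1.90, SE 0.23, adjusted p = 3.3e-06). Ndufs4, an accessory subunit of complex I, which Metformin is known to inhibit, was at 47.8, 46.6 and 54.3 CPM in Metformin + LPS, against 29.4, 26.01 and 24.3 CPM in LPS + LPS (log2 fold change 0.90, SE 0.15, adjusted p = 1.0e-04), but at a log2 fold change of 0.09 with library size alone (adjusted p = 0.73). Ndufv3 was the complex I subunit that fell (-1.07, adjusted p = 8.9e-04), and among the others Cox6c of complex IV rose by 1.29 (0.47 with library size alone, adjusted p = 0.07) and Cycs, cytochrome c, by 1.32.

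Transcripts of the mitochondrial genome were higher too, as was their share of the library given above, where code series and pretreatment cannot be told apart. Of 12 tested, 11 (91.7%) rose, beside 22.1% of all genes tested, with a median of 2.06, and 9 of the 12 did so with GC and length trends removed or without replicate 3. mt-Nd5, a complex I subunit, stood at 614, 626 and 724 CPM in Metformin + LPS, against 134, 113 and 71.02 CPM in LPS + LPS (log2 fold change 2.63, SE 0.26, adjusted p = 3.7e-07). mt-Nd1 stood at 1445, 1342 and 2702 CPM in Metformin + LPS, against 602, 514 and 375 CPM in LPS + LPS (log2 fold change 1.88, SE 0.29, adjusted p = 4.5e-05), with replicate 3 the highest. The part of the code series in these values was not tested. Summed levels in Zeb1WT Metformin + LPS were 20828 to 33861 CPM, against 4215 to 6400.3 CPM in Zeb1WT LPS + LPS.

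Cytosolic ribosomal protein genes also moved as a group. Of 78 tested, 74 (94.9%) rose and none fell, beside 22.1% and 24.1% of all genes tested, with a median of 1.26. Rpl7a stood at 236, 232 and 210.1 CPM in Metformin + LPS, against 76.2, 71.9 and 68.4 CPM in LPS + LPS (log2 fold change 1.65, SE 0.19, adjusted p = 1.5e-06). Rps20 was at 135, 124 and 122 CPM in Metformin + LPS, against 29.8, 32.1 and 24.3 CPM in LPS + LPS (log2 fold change 2.14, SE 0.31, adjusted p = 2.3e-05). With library size alone 25 rose, none fell and the median was 0.44. In single-dose LPS, with the code series of LPS + LPS, 27 of the 78 lay nearer to Metformin + LPS than to LPS + LPS, as did 9 of the 36 complex I subunits, 7 of the 35 of complexes III to V and 5 of the 12 mitochondrial genes, beside 53.4% of all genes tested. Ribosomal protein genes have many processed pseudogenes, so their counts depend on how multi-mapping reads were shared. The 78 mitochondrial ribosomal protein genes were split, with 11 (14.1%) higher and 14 (17.9%) lower, both below the shares over all genes. Their median was -0.10 (0.09 with GC and length trends removed). That split did not hold with library size alone, where 1 rose and 58 fell with a median of -0.91. Without replicate 2 or 3 of LPS + LPS, 6 rose, and without replicate 3 of Metformin + LPS the median was -0.20. Of 48 genes of ribosome biogenesis 13 (27.1%) rose and 5 (10.4%) fell, beside 22.1% and 24.1% of all genes tested. Their median was 0.07, or -0.74 with library size alone, where 2 rose and 25 fell, and 0.01 without replicate 3 of Metformin + LPS. Nop58, a core protein of box C/D snoRNPs, rose by 1.71 and Wdr43, of the small-subunit processome, by 1.67, whereas Wdr12 fell by 1.25.

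The pathways most often tied to Metformin did not move as 1 block. Of 22 AMPK and energy-sensing genes 5 rose and 9 fell, with a median of -0.40. That is 22.7% and 40.9% of them, beside 22.1% and 24.1% of all genes tested. The number that rose was 2 to 3 without replicate 1 or 2 of Metformin + LPS or replicate 2 or 3 of LPS + LPS, and with library size alone 1 rose and 13 fell. Sesn1, an inducer of AMPK activity, stood at 0.710, 0.580 and 0.378 CPM in Metformin + LPS, against 11.5, 7.28 and 7.05 CPM in LPS + LPS (log2 fold change -3.95, SE 0.65, adjusted p = 8.5e-05). Prkag1, a regulatory subunit of AMPK, was at 31.7, 29.98 and 34.99 CPM in Metformin + LPS, against 67.4, 64.9 and 75.5 CPM in LPS + LPS (log2 fold change -1.10, SE 0.18, adjusted p = 7.1e-05). Acaca, the acetyl-CoA carboxylase that AMPK inhibits, stood at 111, 101 and 65.3 CPM in Metformin + LPS, against 14.3, 22.2 and 19.4 CPM in LPS + LPS (log2 fold change 2.31, SE 0.36, adjusted p = 4.5e-05). Each of these 3 genes was without overlap between the groups, as were 63.0% of all genes tested. Activity of AMPK is set by phosphorylation, which RNA does not show.

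Of 19 genes of the ATF4 stress response, which senses amino acid shortage and mitochondrial stress, 2 rose and 7 fell (median -0.87). That is 10.5% and 36.8% of them, beside 22.1% and 24.1% of all genes tested. With GC and length trends removed 4 rose and 5 fell (median -0.21), and with library size alone 0 rose and 10 fell. Without replicate 3 of Metformin + LPS 1 rose and 9 fell (median -1.12), and without replicate 1 or 2 of that group 4 fell. Atf4 itself stood at 111, 112 and 121 CPM in Metformin + LPS, against 53.5, 52.4 and 37.9 CPM in LPS + LPS (log2 fold change 1.26, SE 0.24, adjusted p = 2.9e-04), and its log2 fold change was 0.45 with library size alone (adjusted p = 0.19). Its partner Cebpg stood at 6.85, 4.85 and 8.83 CPM in Metformin + LPS, against 41.7, 32.5 and 45.9 CPM in LPS + LPS (log2 fold change -2.55, SE 0.34, adjusted p = 9.8e-06). Of 21 amino acid transporters 5 (23.8%) rose and 6 (28.6%) fell, near the shares over all genes, with a median of -0.66. Among them Slc1a5, the glutamine carrier, fell by 1.57, and Slc7a1, the cationic carrier, rose by 1.34 (0.53 with library size alone, adjusted p = 0.16). Without replicate 3 of Metformin + LPS 4 rose and 9 fell of the transporters (median -1.01), without replicate 1 of LPS + LPS 3 rose, and with library size alone 0 rose and 11 fell. Of 20 cytosolic aminoacyl-tRNA synthetases 4 (20%) rose and 3 (15%) fell, not above the shares over all genes. Their median of -0.17 became 0.12 with GC and length trends removed, while 1 rose and 14 fell with library size alone. Without replicate 3 of Metformin + LPS 5 of them fell (median -0.28). Wars, an interferon-inducible synthetase, rose by 1.42 and Mars fell by 1.69.

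Of 34 autophagy and mitophagy genes 7 (20.6%) rose and 11 (32.4%) fell, beside 22.1% and 24.1% of all genes tested, with a median of -0.13. The counts were 2 and 23 with library size alone and 11 and 10 with GC and length trends removed. Without replicate 2 of Metformin + LPS or replicate 1 of LPS + LPS, 7 fell. Optn, a mitophagy receptor, was among those that rose, at 131, 137 and 179 CPM in Metformin + LPS, against 26.1, 30.3 and 28.4 CPM in LPS + LPS (log2 fold change 2.40, SE 0.17, adjusted p = 7.6e-09). Wipi1, a phosphoinositide-binding protein of the phagophore, fell by 2.97. Of 21 sterol synthesis genes 6 (28.6%) fell, near the share over all genes, and 1 (4.76%) rose, and with library size alone 15 fell. Sqle, the squalene epoxidase, stood at 1.88, 3.899 and 1.56 CPM in Metformin + LPS, against 24.9, 23.2 and 20.5 CPM in LPS + LPS (log2 fold change -3.23, SE 0.44, adjusted p = 1.0e-05), and Mvd fell by 3.05. The gene that rose was Insig1, the sterol sensor that retains SCAP in the endoplasmic reticulum, at 89.3 ± 9.67 CPM in Metformin + LPS and 20.5 ± 3.67 CPM in LPS + LPS (2.12, adjusted p = 1.9e-06). Of 22 antioxidant genes 9 (40.9%) rose and 3 (13.6%) fell (median 0.25, or -0.57 with library size alone, where 4 rose and 10 fell). Without replicate 3 of Metformin + LPS 8 rose and 5 fell (median 0.13), and without replicate 2 of LPS + LPS 5 rose. Txnrd1, the thioredoxin reductase, stood at 688, 637 and 525 CPM in Metformin + LPS, against 138, 157 and 153 CPM in LPS + LPS (log2 fold change 2.05, SE 0.28, adjusted p = 1.2e-05). Hmox1, which degrades haem, was at 44.8, 49.8 and 98.1 CPM in Metformin + LPS, against 348, 335 and 287 CPM in LPS + LPS (log2 fold change -2.33, SE 0.32, adjusted p = 1.0e-05). Of 13 heat shock genes 5 (38.5%) rose and 3 (23.1%) fell (median -0.06, or 0.09 with GC and length trends removed). The falls rest on single libraries: none was left without replicate 3 of Metformin + LPS (median -0.13) and 1 without replicate 1 or 2 of Metformin + LPS or replicate 2 or 3 of LPS + LPS. With library size alone 0 rose and 7 fell. Hspa5, the chaperone of the endoplasmic reticulum, was at 2950.4 ± 436 CPM in Metformin + LPS and 1390.2 ± 181 CPM in LPS + LPS (1.09, adjusted p = 0.0021), with a log2 fold change of 0.27 and an adjusted p of 0.29 when scaled by library size.

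Cell cycle genes were mostly lower in Metformin + LPS: 16 of 23 (69.6%) fell and 3 (13%) rose, beside 24.1% and 22.1% of all genes tested, with a median of -2.72. Ccna2, the S-phase cyclin, stood at 0.456, 0.632 and 0.708 CPM in Metformin + LPS, against 9.997, 12.3 and 9.04 CPM in LPS + LPS (log2 fold change -4.11, SE 0.50, adjusted p = 3.4e-06). Rrm2, the ribonucleotide reductase subunit of dividing cells, stood at 0.254, 0.263 and 0.803 CPM in Metformin + LPS, against 13.9, 15.3 and 13.4 CPM in LPS + LPS (log2 fold change -4.97, SE 0.66, adjusted p = 8.4e-06). Plk1, a mitotic kinase, had no count in any Metformin + LPS library against 485 counts over the LPS + LPS libraries, at least 129.6-fold lower with 3 counts over the group as the floor. Mki67, the proliferation marker, did the opposite, at 27.99, 25.6 and 15.3 CPM in Metformin + LPS, against 8.45, 10.8 and 11.3 CPM in LPS + LPS (log2 fold change 1.18, SE 0.34, adjusted p = 0.0093). That call was lost without replicate 1 of Metformin + LPS (0.98, adjusted p = 0.051), with GC and length trends removed (0.77, adjusted p = 0.056) and with library size alone (0.35, adjusted p = 0.38). Summed levels were 165, 172 and 185 CPM in Metformin + LPS, against 292, 299 and 276 CPM in LPS + LPS, and in single-dose LPS 19 of the 23 lay nearer to Metformin + LPS.

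**Figure D3:**
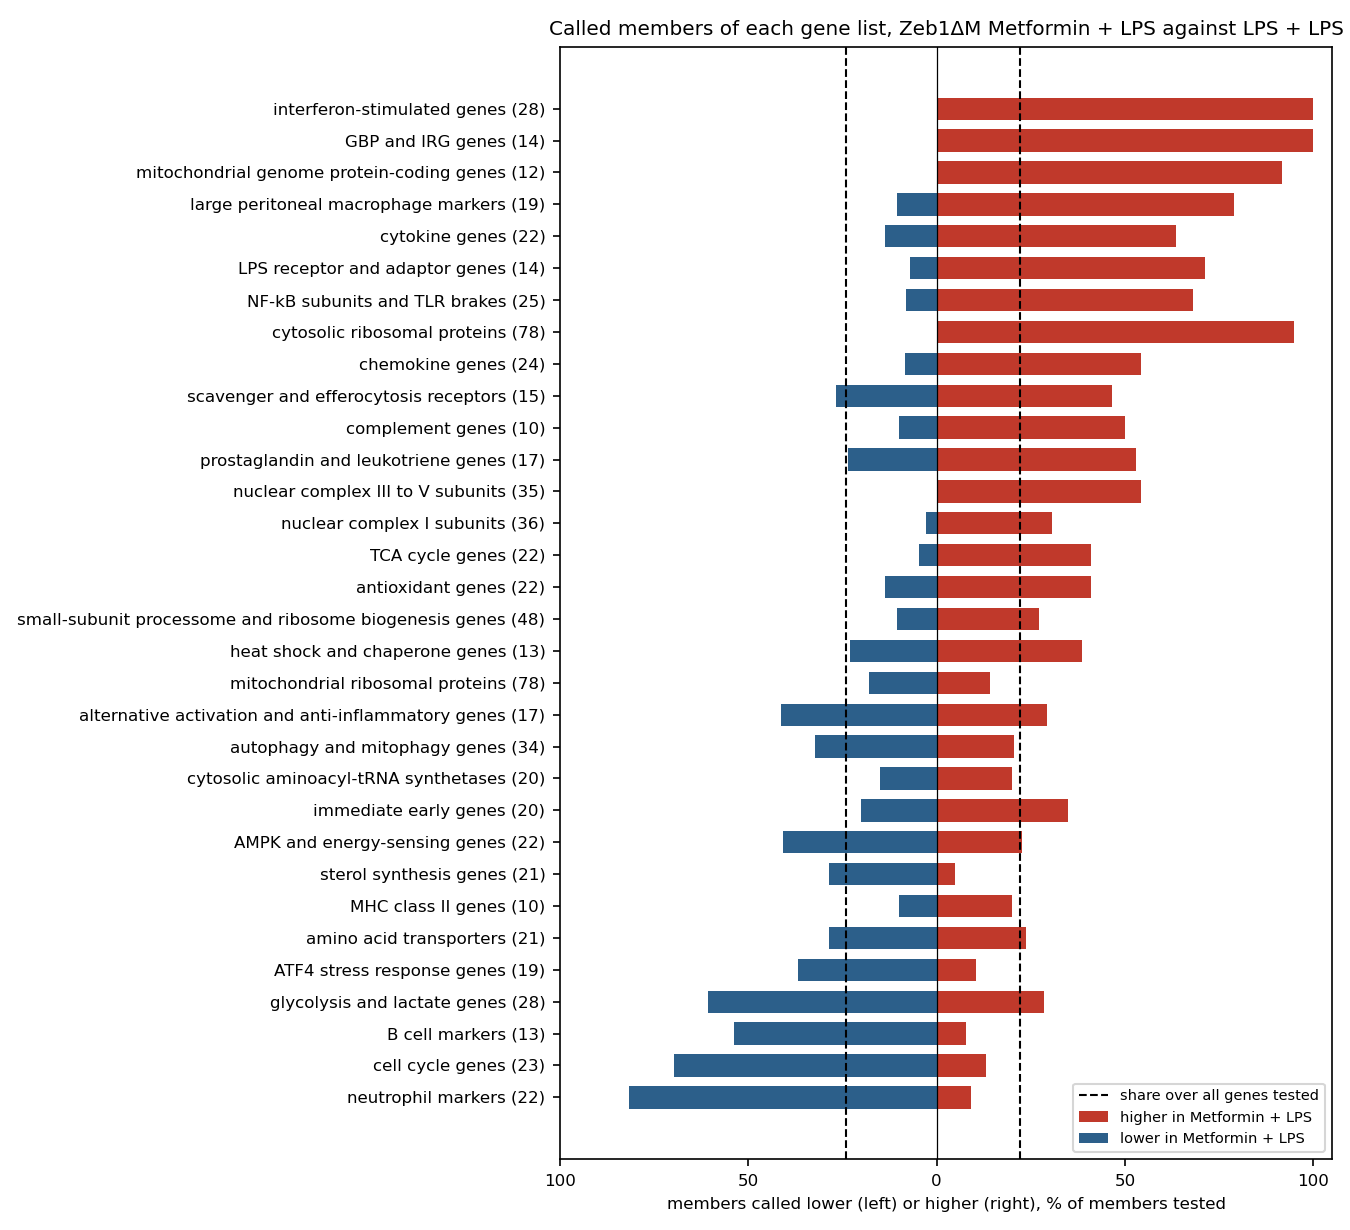
Share of the tested members of each gene list (number tested in parentheses) that were called higher (red, to the right) or lower (blue, to the left) in Zeb1ΔM Metformin + LPS than in LPS + LPS, in percent, ordered by median log2 fold change. Dashed lines are the shares over all genes tested, 22.1% higher and 24.1% lower, and the interferon and GBP lists reach 100% higher.

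The markers of the sorted cells were checked next. Macrophage markers were present in every library, with summed levels of 28478, 27131 and 36916 CPM in Metformin + LPS, against 18429, 20397 and 16716 CPM in LPS + LPS. Of 9, 4 (44.4%) rose and 1 (11.1%) fell, beside 22.1% and 24.1% of all genes tested (median 0.63, or 0.30 without replicate 3 of Metformin + LPS and -0.18 with library size alone, where 1 rose and 4 fell). Itgam (CD11b) stood at 2533, 2314 and 1480.0 CPM in Metformin + LPS, against 905, 1083 and 741 CPM in LPS + LPS (log2 fold change 1.21, SE 0.27, adjusted p = 0.0014), or at a log2 fold change of 0.39 with library size alone (adjusted p = 0.23). Fcgr1 (CD64), itself interferon-inducible, rose by 3.05, while Spi1 (PU.1) fell by 1.30 (-0.50 with GC and length trends removed, adjusted p = 0.076). Large peritoneal macrophage markers were mostly higher in Metformin + LPS, with 15 of 19 (78.9%) rising and 2 (10.5%) falling and a median of 1.80. Their summed level was 55828, 50367 and 43347 CPM in Metformin + LPS, against 11204, 16303 and 13694 CPM in LPS + LPS, and 45689.7 to 49872 CPM in single-dose LPS. Thbs1, given below, was a large part of the Metformin + LPS sum. In single-dose LPS 10 of the 19 lay nearer to Metformin + LPS, beside 53.4% of all genes tested. Timd4 (TIM-4), a phosphatidylserine receptor of resident macrophages, stood at 639, 629 and 718 CPM in Metformin + LPS, against 83.2, 111 and 46.97 CPM in LPS + LPS (log2 fold change 3.04, SE 0.26, adjusted p = 4.3e-08). Alox15, the lipoxygenase of resident peritoneal macrophages, stood at 5355, 4903 and 5333 CPM in Metformin + LPS, against 345, 539 and 393 CPM in LPS + LPS (log2 fold change 3.61, SE 0.39, adjusted p = 7.3e-07). Thbs1, thrombospondin 1, was the most abundant member in Metformin + LPS, at 32058, 28292 and 18837 CPM in Metformin + LPS, against 1912, 3387 and 3056 CPM in LPS + LPS (log2 fold change 3.24, SE 0.32, adjusted p = 3.1e-07), and Rarb fell by 3.94. In sorted bulk samples fewer cells of a type and less RNA per cell cannot be told apart.

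Neutrophil markers moved the opposite way: 18 of 22 (81.8%) fell and 2 (9.09%) rose, beside 24.1% and 22.1% of all genes tested. Their median was -5.32, or -4.91 with the 3 members without any Metformin + LPS count set at their bound. S100a8, a subunit of calprotectin, stood at 3.85, 3.32 and 6.47 CPM in Metformin + LPS, against 359, 224 and 562 CPM in LPS + LPS (log2 fold change -6.39, SE 0.67, adjusted p = 5.6e-07). S100a9, the other subunit, was at 1.83, 1.26 and 2.93 CPM in Metformin + LPS, against 168, 76.6 and 194 CPM in LPS + LPS (log2 fold change -6.18, SE 0.74, adjusted p = 2.8e-06). Mmp8, the neutrophil collagenase, stood at 0, 0.158 and 0 CPM in Metformin + LPS, against 165, 53.4 and 154 CPM in LPS + LPS (adjusted p = 1.1e-06), from 3 counts over the Metformin + LPS libraries and 9431 over those of LPS + LPS. Ngp, a granule protein, had no count in Metformin + LPS against 2495 in LPS + LPS, at least 667-fold lower, and Stfa2 and Ly6g were likewise at 0 in Metformin + LPS. The summed level of the list was 1811, 1799 and 1776 CPM in Metformin + LPS, against 3831, 3239.5 and 4117 CPM in LPS + LPS, and 1432 to 1818 CPM in single-dose LPS. A large part of the Metformin + LPS sum was Padi4. In single-dose LPS 12 of the 22 lay nearer to Metformin + LPS, beside 53.4% of all genes tested, and Ngp stood at 12.7, 2.04 and 23.5 CPM. Padi4 and Prtn3 rose, with Padi4 at 833, 810.5 and 701 CPM in Metformin + LPS, against 157, 228 and 151 CPM in LPS + LPS (log2 fold change 2.13, SE 0.23, adjusted p = 7.4e-07). Padi4, which citrullinates histones, is also expressed by macrophages. In LPS + LPS, replicate 2 had the lowest value of S100a8, S100a9 and Mmp8, and also of Il1r2, Chil3 and Il1f9 given above. Chil1, a chitinase-like protein also made by neutrophils, stood at 0.710, 1.84 and 4.72 CPM in Metformin + LPS, against 184, 66.1 and 256 CPM in LPS + LPS (log2 fold change -6.11, SE 0.82, adjusted p = 9.9e-06). The part of neutrophils in the falls of Il1r2, Chil3 and other genes they share with macrophages was not tested.

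The ZEB1-type E-box CAGGTG, searched on both strands, was present in 17% of all promoter windows, 15.4% of those of genes called higher, 18.6% of those called lower, and in 11 of the 20 neutrophil markers with a window. In the other lists looked up it was in 4 of 20 interferon-stimulated, 0 of 9 GBP and IRG, 4 of 27 glycolysis and lactate, 4 of 21 NF-kB and brake, 3 of 16 cytokine and 1 of 16 chemokine genes with a window. The NF-kB motif GGGACTTTC, the AP-1 motif TGANTCA, the CRE TGACGTCA, the CARE TGATGNAA and the E-box CACGTG, searched in the same way, were in 0.419%, 5.56%, 2.94%, 2.34% and 10% of all windows. In the same order they were in 0.507%, 6.48%, 3.19%, 3.3% and 8.84% of the windows of genes called higher. In those called lower they were in 0.313%, 5.66%, 2.56%, 2.1% and 11.4%, so CACGTG had the same order of shares as CAGGTG. A match is no evidence of binding, and a link of these matches to the falls was not tested. The window of S100a9 is shown with its match in capitals, which lies on the opposite strand as CACCTG.
S100a9 (chr3:90695672-90695971, minus strand): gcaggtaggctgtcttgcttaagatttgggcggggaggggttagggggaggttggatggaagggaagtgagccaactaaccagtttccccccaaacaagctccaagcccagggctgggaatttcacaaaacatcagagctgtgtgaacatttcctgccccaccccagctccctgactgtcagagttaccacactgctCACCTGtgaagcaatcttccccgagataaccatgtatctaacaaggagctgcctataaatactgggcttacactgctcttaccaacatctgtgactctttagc

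Monocyte and small peritoneal macrophage markers were mixed, with 7 of 16 (43.8%) higher and 5 (31.2%) lower, beside 22.1% and 24.1% of all genes tested (median 1.00). Cd209a (DC-SIGN) stood at 143, 104 and 593 CPM in Metformin + LPS, against 0.772, 1.09 and 0.758 CPM in LPS + LPS (log2 fold change 8.31, SE 0.79, adjusted p = 1.9e-07), with replicate 3 far above the others of Metformin + LPS, and at 1014, 264 and 473 CPM in single-dose LPS. Hp, haptoglobin, stood at 513, 697 and 849 CPM in Metformin + LPS, against 7084, 5893 and 5153 CPM in LPS + LPS (log2 fold change -3.14, SE 0.30, adjusted p = 2.0e-07). B cell markers were low, and 7 of 13 (53.8%) fell and 1 (7.69%) rose. Ighm was at 18.9, 18.1 and 25.4 CPM in Metformin + LPS, against 98.8, 196 and 113 CPM in LPS + LPS (log2 fold change -2.71, SE 0.29, adjusted p = 8.4e-07). Summed B cell marker levels were 51.3, 60.7 and 62.7 CPM in Metformin + LPS, against 134, 266 and 148 CPM in LPS + LPS. Most of the LPS + LPS sum was Ighm. Eosinophil markers summed to 4.06, 5.69 and 6.28 CPM in Metformin + LPS, against 27.8, 13.6 and 16.5 CPM in LPS + LPS, with 4 of 6 (66.7%) lower (1 to 2 when a single library other than replicate 2 of LPS + LPS was left out). Of 5 T and NK cell markers tested 1 (20%) rose and 1 (20%) fell, near the shares over all genes. Of 5 mast cell and basophil markers 1 (20%) rose, of 7 dendritic cell markers 1 (14.3%) rose and 1 (14.3%) fell, of 3 mesothelial and stromal markers 2 (66.7%) fell, and of 5 erythroid markers none was called. The dendritic cell marker that rose was Cd209a, which is also on the monocyte list. Xist, the transcript of the inactive X, was present in every library and rose by 2.13, at 156, 155 and 209 CPM in Metformin + LPS, against 43.04, 46.4 and 28.9 CPM in LPS + LPS, and no library of the series had a count for the 4 Y-linked genes Ddx3y, Eif2s3y, Kdm5d and Uty.

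Genes of clearance and lipid mediators were partly higher. Of 15 scavenger and efferocytosis receptors 7 (46.7%) rose and 4 (26.7%) fell, beside 22.1% and 24.1% of all genes tested (median 0.61, or -0.21 with library size alone). Axl, a receptor of apoptotic cells, stood at 159, 195 and 159 CPM in Metformin + LPS, against 12.3, 17.2 and 15.7 CPM in LPS + LPS (log2 fold change 3.50, SE 0.31, adjusted p = 7.0e-08). Its ligand Gas6 stood at 0.507, 0.843 and 0 CPM in Metformin + LPS, against 9.39, 10.7 and 9.56 CPM in LPS + LPS (log2 fold change -4.46, SE 0.61, adjusted p = 1.2e-05). Of 10 complement genes 5 (50%) rose and 1 (10%) fell (median 0.60, or -0.21 with library size alone), and 3 rose without replicate 1 or 3 of Metformin + LPS or replicate 3 of LPS + LPS. C4b was at 7330.1, 6137 and 5627 CPM in Metformin + LPS, against 926, 1542 and 873 CPM in LPS + LPS (log2 fold change 2.51, SE 0.31, adjusted p = 4.2e-06). Of 17 prostaglandin and leukotriene genes 9 (52.9%) rose and 4 (23.5%) fell, the latter near the share over all genes (median 0.53, or -0.29 with library size alone). Hpgds was the lowest, at a log2 fold change of -2.96 from 25 counts over Metformin + LPS and 243 over LPS + LPS. Ptgis, prostacyclin synthase, stood at 442, 383 and 408 CPM in Metformin + LPS, against 19.8, 28.7 and 16.3 CPM in LPS + LPS (log2 fold change 4.25, SE 0.28, adjusted p = 1.9e-09). Ptgs2 (COX-2), the inducible cyclooxygenase, was at 691, 559.8 and 721 CPM in Metformin + LPS, against 79.01, 135 and 121 CPM in LPS + LPS (log2 fold change 2.56, SE 0.31, adjusted p = 3.4e-06). Of 10 MHC class II genes 2 (20%) rose and 1 (10%) fell, beside 22.1% and 24.1% of all genes tested. Their median was -0.63, and with library size alone 1 rose and 7 fell. Summed levels were 2803, 2807 and 5316 CPM in Metformin + LPS, against 4996, 4757 and 6390 CPM in LPS + LPS. The lowest log2 fold change of the list was that of H2-Oa (-2.75) and the highest that of H2-DMa. H2-DMa stood at 90.8, 90.8 and 226 CPM in Metformin + LPS, against 47.7, 44.7 and 46.5 CPM in LPS + LPS (log2 fold change 1.56, SE 0.35, adjusted p = 0.0013).

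The 14 genes that the study names for Metformin or measured as protein were looked at separately. The study named Arg1, Mrc1, Il4, Acod1, Tspo, Timp1, Cldn1 and Sod2 in the Metformin signature specific to Zeb1WT, and Wdr3 in that of Zeb1ΔM. Both signatures set Metformin + LPS against single-dose LPS, which is another contrast than the one here. These genes came from libraries of this series and the others were chosen on mice of the same kind, so the list is no independent evidence of a direction. Of the 14, 6 (42.9%) rose and 3 (21.4%) fell, beside 22.1% and 24.1% of all genes tested. Their median was 0.39 (-0.42 with library size alone, where 3 rose and 7 fell, and 0.21 without replicate 3 of Metformin + LPS). Besides Il6, Arg1 and Acod1 above, Il1b stood at 566, 478 and 399 CPM in Metformin + LPS, against 232, 181 and 225 CPM in LPS + LPS (log2 fold change 1.18, SE 0.35, adjusted p = 0.011) and Tnf at 103, 98.6 and 116 CPM in Metformin + LPS, against 63.5, 49.8 and 55.6 CPM in LPS + LPS (log2 fold change 0.91, SE 0.19, adjusted p = 6.9e-04). Cxcl1, a neutrophil attractant, stood at 488, 427 and 1198 CPM in Metformin + LPS, against 86.3, 175 and 112 CPM in LPS + LPS (log2 fold change 2.50, SE 0.41, adjusted p = 7.8e-05), with replicate 3 the highest. Of these, Il1b and Tnf did not pass with library size alone, at log2 fold changes of 0.36 and 0.09 (adjusted p = 0.34 and 0.72), whereas Il6 and Cxcl1 did. Mrc1 (CD206) stood at 55.5, 45.8 and 20.7 CPM in Metformin + LPS, against 92.7, 116 and 104 CPM in LPS + LPS (log2 fold change -1.36, SE 0.32, adjusted p = 0.0022). Cldn1, a tight junction protein, fell at low counts (0.110 ± 0.191 CPM in Metformin + LPS and 2.54 ± 1.66 CPM in LPS + LPS, adjusted p = 0.0019). Sqstm1 (p62) was at 292 ± 47.99 CPM in Metformin + LPS and 203 ± 29.6 CPM in LPS + LPS (log2 fold change 0.52, SE 0.20, adjusted p = 0.037). Its value turned to -0.29 with library size alone, and the call was lost without each library of the comparison in turn except replicate 1 of LPS + LPS (adjusted p = 0.054 to 0.19). Timp1, Tspo, Sod2, Wdr3 and Il4 did not pass the test, with log2 fold changes of -0.29, 0.49, 0.29 and -0.36 for the first 4 and no Metformin + LPS count for Il4, which had 9 counts over the LPS + LPS libraries. With library size alone Timp1 (-1.11) and Wdr3 (-1.18) passed as lower, Sod2 turned to a lower value that passed (-0.52, adjusted p = 0.024) and Il4 passed as lower, as it did with DESeq2 and with no filter on low counts. Tspo passed as higher with GC and length trends removed (1.08) and in the fit of only the groups compared (0.53), and stood at -0.33 with library size alone.

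The same pair of pretreatments was available in Zeb1WT, with the same split of library codes. There, 3047 genes were higher and 3379 lower in Metformin + LPS (22.7% and 25.1%). The difference between the genotypes in this contrast was tested as an interaction, in which a shift shared by all Metformin + LPS libraries cancels. In the interaction 2 genes were called with a higher value in Zeb1ΔM and 12 with a lower one, 0.0149% and 0.0893% of genes tested, and 1463 genes had an unadjusted p under 0.05. Crem, a cAMP-responsive transcription factor, rose in both genotypes and more in Zeb1ΔM, at 118 ± 35.1 CPM in Metformin + LPS and 7.81 ± 0.986 CPM in LPS + LPS within Zeb1ΔM (log2 fold change 3.91 in Zeb1ΔM and 1.51 in Zeb1WT, adjusted p of the difference = 0.0035). Prg4, which encodes lubricin and marks large peritoneal macrophages, stood at 4235, 3731 and 3358 CPM in Metformin + LPS, against 926, 1445 and 949 CPM in LPS + LPS within Zeb1ΔM (1.77 in Zeb1ΔM and 3.85 in Zeb1WT, adjusted p of the difference = 0.033). Fabp7, a fatty acid carrier, rose in both and less in Zeb1ΔM (1.99 and 3.69). Ms4a4a stood at 62.6, 68.7 and 76.3 CPM in Metformin + LPS, against 280.5, 251 and 273 CPM in LPS + LPS within Zeb1ΔM (-1.95 in Zeb1ΔM and 0.18 in Zeb1WT).

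B cell genes were among those 12. Ighm, the heavy chain of IgM, was -2.71 in Zeb1ΔM and -0.26 in Zeb1WT (adjusted p of the difference = 0.033), and Ms4a1 (CD20), Tnfrsf13c (BAFF receptor) and Mzb1 were called too. Summed B cell marker levels, given above for Zeb1ΔM, were 135 to 215 CPM in Zeb1WT Metformin + LPS and 139 to 204 CPM in Zeb1WT LPS + LPS. Ighm and Ms4a1 are members of that sum, and Ighm was a large part of it. The sum is therefore no evidence apart from these genes. The part of B cells in these calls was not tested. None of the interferon, GBP, cytokine, chemokine or NF-kB list members was called in the interaction. Over all genes tested the shares called were 0.0149% and 0.0893%, so the absence of a call in these lists carries no information on genotype. Their median differences, Zeb1ΔM minus Zeb1WT, were -0.70, 0.43, 0.13, -0.70 and -0.20 in that order, and 0.015 over all genes. Abcb1b, Atxn7l1, Procr and Rcn1, named by the same rule for a higher value in Zeb1ΔM, had adjusted p of 0.064, 0.094, 0.053 and 0.094, and Bcl2a1d with a lower one 0.059, so they did not pass. The count rests on single libraries: it was 1 higher and 0 lower without replicate 1 or replicate 2 of Zeb1ΔM Metformin + LPS, replicate 2 of Zeb1ΔM LPS + LPS or replicate 1 of Zeb1WT Metformin + LPS. It was 4 and 57 without replicate 2 of Zeb1WT Metformin + LPS, and 12 and 15 without replicate 1 of Zeb1WT LPS + LPS.

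**Figure D4:**
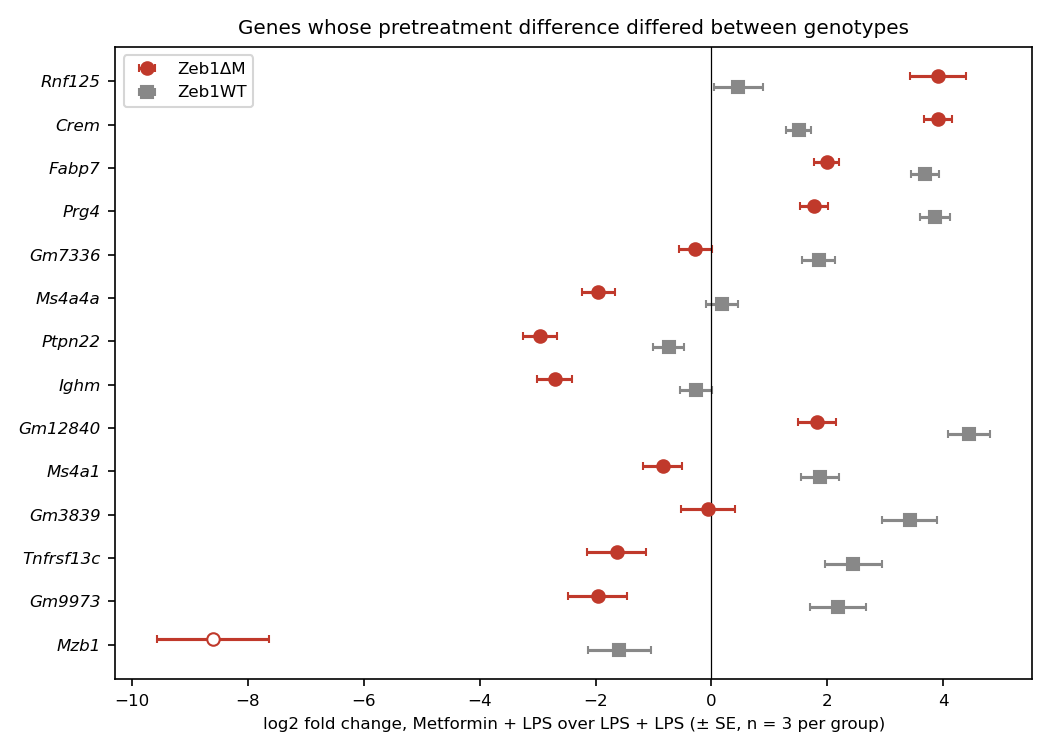
Log2 fold change of Metformin + LPS over LPS + LPS in Zeb1ΔM (red circles) and Zeb1WT (grey squares), ± SE (n = 3 per group), for the 14 genes called in the interaction. Crem stood at 3.91 in Zeb1ΔM and 1.51 in Zeb1WT, and the open circle of Mzb1 marks a fitted value with no Metformin + LPS count in Zeb1ΔM.

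Transcript composition also moved with the contrast. In the decile of genes with the lowest transcript GC content the median log2 fold change was 0.40, and in the decile with the highest it was -0.75. In Zeb1WT the values were 0.40 and -0.75 as well, and in the interaction they were 0.00 and -0.02. By transcript length the medians were -0.03 in the shortest decile, -0.30 in the next and 0.30 in the longest. The 294 genes of the annotation class TEC, models still awaiting experimental evidence, had a median of 1.37. The trends along GC content and length went with the contrast in both genotypes, in which code series and pretreatment cannot be told apart. Their part in single genes was not tested beyond the alternative with the trends removed, where 3174 genes were higher and 2862 lower.

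**Figure D5:**
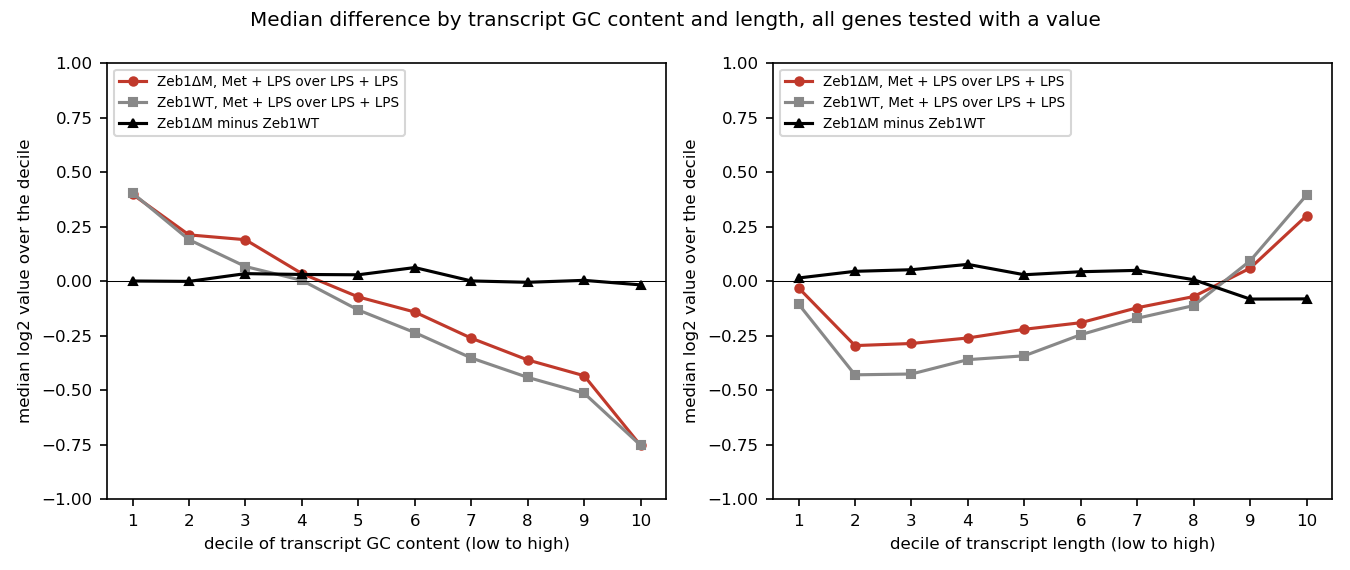
Median log2 fold change of Metformin + LPS over LPS + LPS in Zeb1ΔM (red circles) and Zeb1WT (grey squares), and the median of their difference (black triangles), over deciles of genes by transcript GC content (left) and transcript length (right), from low to high. Along GC content the Zeb1ΔM median ran from 0.40 to -0.75, whereas the difference between the genotypes stayed between -0.02 and 0.06.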

How the data were processed

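Counts per gene of peritoneal macrophage mRNA (poly-A selected, stranded kit, CD11b+ F4/80+ sorted cells) were analysed for 18 libraries in 6 groups of 3, and 6 of the libraries form the comparison. The authors deposited raw counts for 55573 genes. The submitters' processing notes name STAR, RSEM, DESeq2 and the GRCm38 build, with no versions, and the values are whole numbers. Groups followed the genotype and treatment labels. Library codes form a series for Metformin and another for all other libraries, and total counts ran from 14053706 to 30570439. Where nothing says that pools came from separate experiments, p-values measure the spread between these pools, which may be in part technical.

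Genes were filtered with filterByExpr, scaled by TMM and tested with the quasi-likelihood test of edgeR 4.0.16 (limma 3.58.1, R 4.3.3) in 1 fit over all 18 libraries, with Benjamini-Hochberg adjustment over the 13443 genes tested and a threshold of 0.05. CPM values were computed on TMM-scaled library sizes, and fitted log2 CPM used a prior count of 2. The standard error is the size of the log2 fold change divided by the root of the F statistic. The contrast of the pretreatments within Zeb1ΔM, the same within Zeb1WT and their difference (interaction) were tested. Where a group had no count, a fold was bounded with 3 counts over the group. Such bounds cover counting error only.

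The comparison and the gene lists were chosen with earlier results of these data known. The genes named are Zeb1 and those the study names, the 15 largest rises and 15 largest falls (mean log2 CPM of at least 3, no overlap between groups, annotated symbol), up to 5 members of each list by adjusted p with the ends of its range, and 5 genes in each direction of the interaction. The other genes called in the interaction are named because they were called. Members of the cited lists not tested had too few counts for filterByExpr. Alternatives were DESeq2 1.42.0 and its size factors, a fit with no filter, fits restricted to the libraries in each contrast, a minimum size of 1 for the log2 change, a block for the replicate number, and each replicate left out. Scaling by library size alone, TMM without ribosomal RNA locus and mitochondrial genes, and GC and length trends removed (loess, span 0.5) were chosen after seeing the data. The code was tested on simulated data. Gene coordinates are GENCODE M21 and promoter windows RefSeq, both GRCm38.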

Additional observations from a re-analysis of the deposited data

Results flagged for a closer look

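The difference between Metformin + LPS and LPS + LPS was itself different between Zeb1ΔM and Zeb1WT for 14 genes, by the interaction test of edgeR with Benjamini-Hochberg adjustment. Values are the log2 fold change in Zeb1ΔM minus that in Zeb1WT. It was higher in Zeb1ΔM for Crem at 2.40 and for Rnf125, an E3 ubiquitin ligase, at 3.44. Crem was called in 20 of 20 alternatives, and the other 13 genes in 6 (Ms4a4a and Gm3839) to 14 (Prg4 and Ighm) of 20, with a largest adjusted p of 0.092 to 0.14 over the alternatives. Among B cell genes the difference was -2.45 for Ighm, -2.71 for Ms4a1, -4.08 for Tnfrsf13c and -7.01 for Mzb1, the last with no count in Zeb1ΔM Metformin + LPS, so that its fitted value is no bound. Prg4 differed by -2.08, Fabp7 by -1.70, Ms4a4a by -2.13 and Ptpn22, a phosphatase of lymphocyte and myeloid signalling, by -2.21. The remaining 4 were the predicted genes Gm9973 (-4.14), Gm12840 (-2.62), Gm7336 (-2.13) and Gm3839 (-3.47). Gm9973 and Gm7336 are annotated as pseudogenes, Gm12840 as a lncRNA and Gm3839 as protein-coding. Whether reads shared with similar genes affect their counts was not tested.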

How the results depend on the processing

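Within Zeb1ΔM, counts stayed within 1.5 times of 2970 higher and 3236 lower genes except with library size alone, where they were 1318 and 6652, and in Zeb1WT 965 and 8751. Leaving out each Zeb1ΔM library of the comparison gave 2519 to 2709 higher and 2701 to 3033 lower genes in Zeb1ΔM, and leaving out replicate 1 of Zeb1WT LPS + LPS gave 3059 and 3308. Same-numbered replicates did not deviate together (r = -0.04, 0.02 and 0.03 across genes in Zeb1ΔM), so the numbers name libraries only, and the replicate block gave 2949 and 3246. In the interaction, with 2 higher and 12 lower, DESeq2 gave 38 and 146, no filter on low counts 100 and 328, the replicate block 1 and 4, only the groups compared 1 and 0, library size alone 17 and 2, and GC and length trends removed 4 and 18. Leaving out single libraries gave 1 to 12 higher and 0 to 57 lower. The cause of these moves was not tested. Values turned in these cases: Sod2 was -0.52 and Sqstm1 -0.29 and Tspo -0.33 with library size alone, Sod2 was -0.053 and Gm3839 0.23 and Gm7336 0.18 with GC and length trends removed, and without single libraries Gm3839 ran between -0.38 and 0.25 and Gm7336 between -0.48 and 0.043, above 0 for Gm3839 (0.19) and Gm7336 without replicate 1 of Zeb1ΔM LPS + LPS. With 3 pools a group, library codes that go fully with Metformin and no library of Metformin alone, a call shows a difference between these libraries only. Members with few counts, such as Ifnb1, could not be compared at this depth.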
